A study of Mus musculus with 2 samples.

Results

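St18, Myt1 and Myt1l are the 3 genes of the mouse Myt1 family of zinc finger transcription factors, and all 3 were found by symbol among the 32813 gene symbols of the deposited table. The family was chosen by the level of St18 in these libraries, which is among the highest of the table's transcription factor genes, so the levels and ranks of its members are given as descriptions, without a test. The table holds 2 libraries of total RNA, called replicate 1 and replicate 2, from type 5 retinal bipolar cells of the Htr3a-GFP mouse line, sorted by fluorescence from dissociated retina. Both libraries form a single group, described as biological replicates, and there is no untreated, wild-type or other-cell control. The sources used here do not give the age or sex of the mice or how many mice gave each library. Type 5 cells are ON cone bipolar cells, and a green fluorescent protein in this line marks cells in which the Htr3a promoter is active, so the sort could also take other cells with an active promoter.

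Myt1 family proteins bind DNA through clusters of zinc fingers of a cysteine- and histidine-rich type that few other proteins carry, and the short core of their site is AAGTT. They act mostly as repressors, recruiting the Sin3 and histone deacetylase complexes and the demethylase Kdm1a. In developing neurons Myt1 and Myt1l hold down Notch targets and genes of non-neuronal programmes, and Myt1l, with other factors such as Pou3f2, can turn fibroblasts into neurons. St18, also called Myt3, is known from endocrine pancreas and from forebrain interneurons and projection neurons.

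The 3 coding sequences are alike enough to be recognised as a family, and a closely matching stretch illustrates the resemblance at the level of the RNA that was sequenced. Its length of 90 bases and its place inside 1 coding exon of each gene were set for the search (GENCODE M21 annotation of GRCm38, which is mm10). The search took the transcript with the longest coding sequence of each gene, allowed no gaps, and matched Myt1 and Myt1l to St18 separately. In St18 the stretch lies in exon 9 of transcript St18-201, chr1:6807570-6807659. In Myt1 it is exon 8 of Myt1-201, chr2:181801044-181801133, and in Myt1l exon 11 of Myt1l-202, chr12:29832315-29832404, with all 3 on the plus strand. Capitals mark bases that are the same in all 3 genes.

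St18: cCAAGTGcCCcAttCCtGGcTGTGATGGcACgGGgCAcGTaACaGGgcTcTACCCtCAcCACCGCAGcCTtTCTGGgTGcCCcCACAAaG

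Myt1: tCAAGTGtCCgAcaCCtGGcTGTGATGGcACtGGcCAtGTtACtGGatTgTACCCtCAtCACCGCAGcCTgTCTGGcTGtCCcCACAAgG

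Myt1l: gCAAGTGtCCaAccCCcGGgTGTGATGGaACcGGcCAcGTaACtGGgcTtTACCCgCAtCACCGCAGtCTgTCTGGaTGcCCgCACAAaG

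Of the 90 bases, 66 were the same in all 3 genes (73.3%), and each pair of genes shared 72 (80.0%). Even so, no run of 25 bases was shared between the protein-coding transcripts of any pair, on either strand. Runs of 50 bases from those of St18 and Myt1 occurred in transcripts of no other gene, so reads of that length that match exactly belong to 1 family member. Myt1l is the exception in part. Of its 9699 runs of 50 bases, 149 (1.54%) also occurred in Gm20208, a noncoding gene on the opposite strand that overlaps the start of Myt1l, chr12:29526906-29534891. A further opposite-strand gene, C630031E19Rik, lies within Myt1l and shared no such run with it. Neither of these opposite-strand genes was found by symbol in the deposited table, so no value of theirs can be set beside that of Myt1l. The sources used here do not say whether counting used strand, so reads from the stretch shared with Gm20208 may not be told apart from those of Myt1l.

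St18 was the most abundant member, Myt1 was next and Myt1l was far lower, in both libraries. Levels are given as transcripts-per-million (TPM), a unit scaled by transcript length that can be compared between genes. St18 stood at 891 TPM in replicate 1 and 624 TPM in replicate 2, a mean of 758 ± 189 TPM (SD, n = 2). Myt1 stood at 378 and 273 TPM, a mean of 325 ± 74.5 TPM (SD, n = 2). Myt1l stood at 36.3 and 34.8 TPM, a mean of 35.6 ± 1.06 TPM (SD, n = 2). The ranges of the members did not overlap: the lower St18 value was above the higher Myt1 value, and the lower Myt1 value was above the higher Myt1l value.

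**Figure D1:**
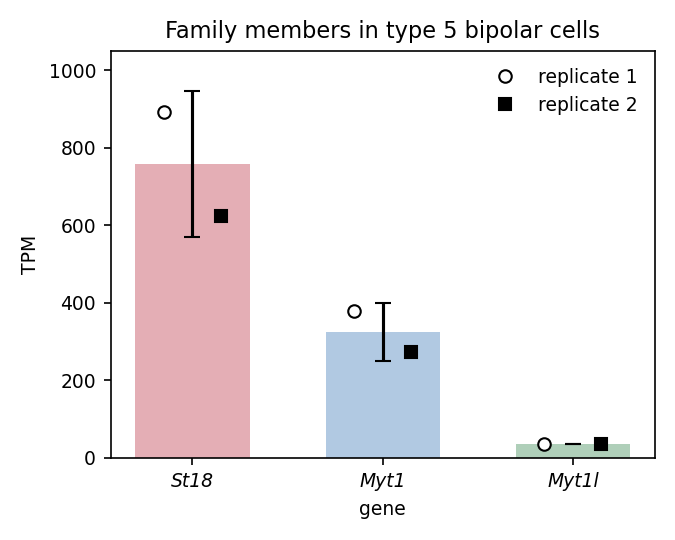
TPM of St18, Myt1 and Myt1l (linear axis from 0), with bars for the mean of the 2 libraries, error bars for the SD, open circles for replicate 1 and filled squares for replicate 2. St18 lay at 891 and 624 TPM, Myt1 at 378 and 273, and Myt1l at 36.3 and 34.8, with no overlap between genes.

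The proportions within the family were nearly the same in both libraries although the totals were not. The members summed to 1306 TPM in replicate 1 and 931 TPM in replicate 2. St18 made up 68.3% of this sum in replicate 1 and 67.0% in replicate 2, Myt1 29.0% and 29.3%, and Myt1l 2.78% and 3.74%. The ratio of St18 to Myt1 was 2.36 and 2.29. On the log2(TPM + 1) scale, with a pseudocount of 1, St18 exceeded Myt1 by 1.24 in replicate 1 and 1.19 in replicate 2. St18 exceeded Myt1l by 4.58 and 4.12 log2 units, a ratio of 24.5 and 17.9.

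St18 and Myt1 were both lower in replicate 2, and Myt1l was close in both libraries. The log2 difference, replicate 2 minus replicate 1, was -0.51 for St18 and -0.47 for Myt1, against a median of -0.20 over the 19968 genes above 0 in either library. Of the 232 genes whose mean lay within 2-fold of that of St18, 27.6% differed more between the libraries than St18 did, and of the 748 such genes around Myt1, 35.6% differed more than Myt1. For Myt1l the difference was -0.06, and 95.0% of 5130 genes of similar mean differed more. Mitochondrial transcripts made up 17.3% of all TPM in replicate 1 and 24.6% of it in replicate 2, which lowers every other value in replicate 2. With that RNA removed and the rest rescaled, the differences were -0.38 for St18, -0.34 for Myt1 and 0.07 for Myt1l, so the sign for Myt1l turned, and the median over genes was -0.12. With 2 libraries of 1 group no test of a difference between them was possible. In bulk RNA, fewer cells that express a gene and less of its RNA per cell cannot be told apart.

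**Figure D2:**
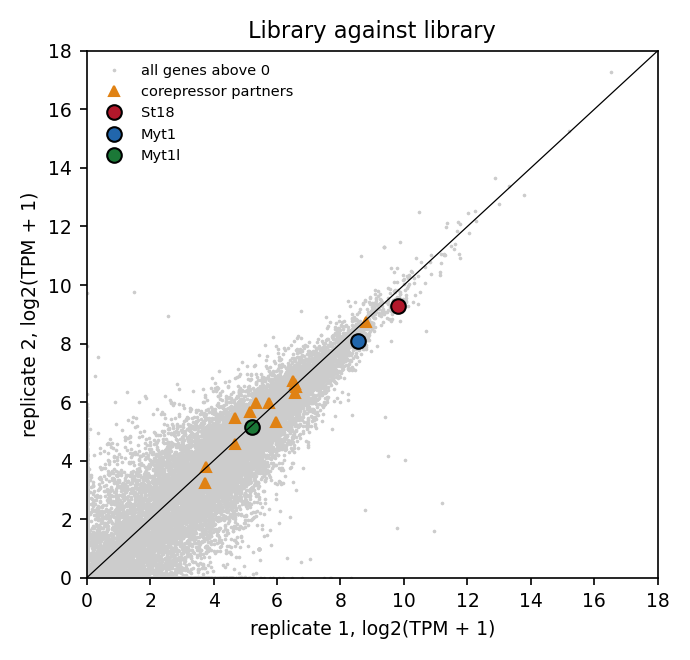
Level of each gene above 0 in replicate 2 against replicate 1, both as log2(TPM + 1), with the 3 family members as large circles, 13 corepressor partner genes as triangles and the line of equality. St18 and Myt1 lay below the line, by 0.51 and 0.47, and Myt1l lay next to it.

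Among all symbols St18 ranked 113 by mean TPM, with rank 93 in replicate 1 and 145 in replicate 2, and 99.7% of symbols were lower. Among symbols that GENCODE M21 names as protein-coding it ranked 79. Myt1 ranked 337 of all symbols and Myt1l 4768. All 3 members reached 10 TPM in both libraries, as did 25.1% of all symbols. This share restates how the family was picked and carries no further weight. Pkmyt1, a cell-cycle kinase gene of another family for which the symbol Myt1 is also in use, was a row of its own, at 0.37 TPM in replicate 1 and at a listed 0 in the other library.

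In a hand-written list of 336 transcription factor genes found in the table, St18 held place 3, Myt1 place 12 and Myt1l place 78 by mean TPM. The only genes above St18 were Neurod4, a basic helix-loop-helix factor of bipolar cells, at 1086 and 1270 TPM, and Otx2, a homeobox factor of photoreceptors and bipolar cells, at 843 and 875 TPM. Otx2 lay inside the range of St18, which was above it in replicate 1 and below it in replicate 2, so the order of the pair was not settled by these libraries. Prox1, a homeobox gene at place 4 with 702 and 468 TPM, also overlapped St18 in range. No other gene of the list did. Places 5 to 10 were held by Nfia at 561 ± 28.3, Hlf at 559 ± 42.8, Isl1 at 461 ± 117, Hif1a at 395 ± 34.3, Zeb2 at 378 ± 20.3 and Meis2 at 371 ± 51.7 TPM (SD, n = 2). Neurod4 did not overlap St18 and was higher in both libraries.

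Around Myt1 the order was closer. Esrrg, an orphan nuclear receptor gene at place 11, stood at 319 and 334 TPM, and Lhx4, a LIM homeobox gene at place 13, at 265 and 303 TPM. Crx, the photoreceptor and bipolar homeobox gene at place 14, stood at 273 and 248 TPM, and Mef2d followed with 213 and 304 TPM. In all, 9 genes of the list overlapped the range of Myt1, so its place could shift among them, and it was 9 in replicate 1 and 14 in replicate 2. Myt1l stood between Six6, at 34.9 and 37.4 TPM, and Cbfa2t2, at 39.3 and 31.7 TPM, and the next genes were Ikzf4 at 36.2 ± 17.3 and Cebpg at 37.2 ± 11.6 above it and Elf2 at 35.4 ± 2.66 and Klf12 at 35.1 ± 17.7 TPM below it (SD, n = 2).

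**Figure D3:**
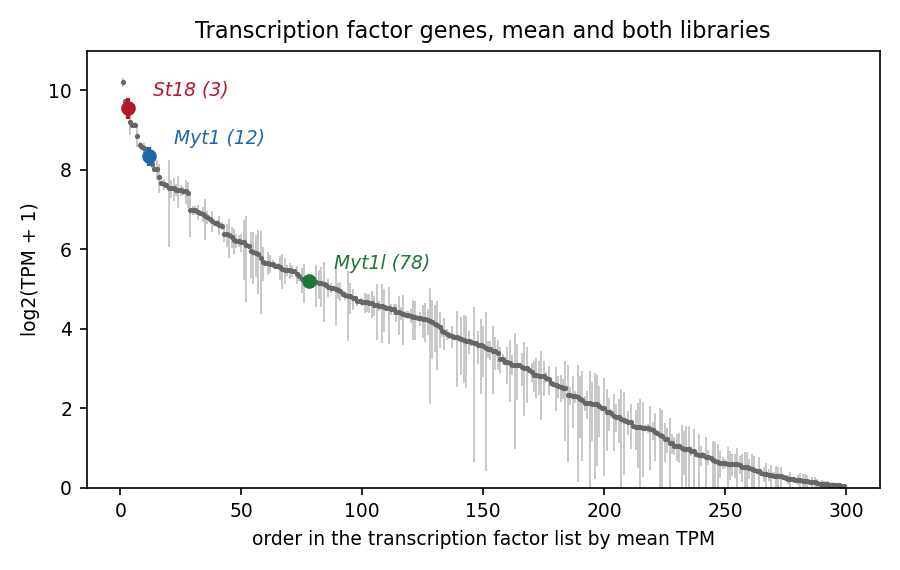
The transcription factor genes in order of mean TPM against log2(TPM + 1), with points for the mean TPM and vertical lines from the lower to the higher library; genes listed at 0 in both libraries are left out. St18 held place 3, Myt1 place 12 and Myt1l place 78 of 336.

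The genes nearest to each member were taken as those with the smallest Euclidean distance over log2(TPM + 1) in the 2 libraries, which measures level and not a pattern across conditions. Nearest to St18 were Otx2, at a distance of 0.49, and Prox1, at 0.54, followed by Nfia at 0.73, Hlf at 0.76 and Isl1 at 1.01. Nearest to Myt1 were Meis2 at 0.31, Esrrg at 0.38, Crx at 0.49 and Zeb2 and Lhx4, both at 0.53. Nearest to Myt1l were Elf2 at 0.07, Six6 at 0.12, Sall2 at 0.14, Cbfa2t2 at 0.17 and Atf6 at 0.21.

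The listed genes of the corepressor complexes with which the family is known to act were all expressed, and all but 1 had a lower mean than Myt1. Of 13 such genes, 13 were above a line of 1 TPM and 11 above 10 TPM (one-sided limma test over 19968 genes, p adjusted by Benjamini-Hochberg, threshold 0.05), against 55.5% and 32.4% of genes tested. Their median of the mean log2(TPM + 1) was 5.65, beside 3.22 for all genes above 0. The exception was Hdac2, a histone deacetylase gene at 445 and 425 TPM, above Myt1 in both libraries, while its paralogue Hdac1 had 90.1 and 104 TPM. The scaffold genes Sin3a and Sin3b had 62.0 and 39.1 TPM and 34.4 and 50.3 TPM. Kdm1a, the histone H3 lysine demethylase gene, had 95.4 and 89.7 TPM.

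The cofactors of Kdm1a lay lower, with Rcor3 at 50.5 ± 16.1, Rcor2 at 33.7 ± 12.6 and Rcor1 at 23.7 ± 1.04 TPM. The histone-binding subunits shared by such complexes stood at 96.0 ± 2.07 TPM for Rbbp7 and 56.8 ± 6.20 for Rbbp4. The Sin3-associated genes were Sap18 at 86.5 ± 11.1, Sap30 at 12.7 ± 0.19 and Suds3 at 10.3 ± 2.67 TPM (SD, n = 2). Rbbp4, Rbbp7 and the deacetylases also serve other complexes, so these values are levels of shared machinery.

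Genes of the Notch pathway were mostly low beside the family. Of 22 genes, 7 were above 1 TPM and 3 above 10 TPM in limma, and the list median was 1.22 on the log2(TPM + 1) scale. Of genes tested, 55.5% and 32.4% were called, but 2 of the 22 were listed at 0 in both libraries and not tested, so the bases differ. Counted without a test, replicate 1 had 16 of the Notch genes at 1 TPM or more, replicate 2 had 12, and 11 reached it in both, as did 41.1% of all symbols. At 10 TPM, 6 reached the line in both, as did 25.1% of all symbols. By these counts the list was not below the share over all symbols. Hes1, the Notch target that Myt1 represses in neural progenitors, had 1.83 and 6.04 TPM, and Hes5 had 3.18 and 0.36 TPM. Neither was called above 1 TPM. Hey1, another Notch target of the same helix-loop-helix class, went the other way, at 107 and 93.8 TPM, while Hey2 had 1.92 TPM in replicate 1 and a listed 0 in the other library, and Heyl was listed at 0 in both.

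The receptors were all low, with Notch1 at 1.16 and 0.30 TPM, Notch2 at 0.84 and 1.13, Notch3 at 1.44 and 0.08 and Notch4 at 3.57 and 0.14. Of the ligands, Dll1 stood at 40.7 and 42.0 TPM, above the line, and Jag2 at 3.28 and 8.55 TPM, not called. Dll3 had 1.21 and 1.05 TPM, Jag1 0.31 and 0.04 TPM, and Dll4 was listed at 0 in both libraries. The nuclear partner Rbpj stood at 11.4 ± 0.67 TPM and its coactivator Maml1 at 11.1 ± 0.01, both above the line, with Maml3 at 5.58 ± 0.67 and Maml2 at 0.37 ± 0.04 not called. The Notch inhibitors Numb and Numbl stood at 36.9 ± 24.4 and 10.3 ± 4.14 TPM, and Hes6, which opposes Hes1, at 14.2 ± 5.81 (SD, n = 2), all 3 above the line. The feedback gene Nrarp had 0.17 TPM in replicate 1 and a listed 0 in the other library.

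Few of the proneural and reprogramming factors were called. Of 18 such genes, 4 were above 1 TPM, against 55.5% of genes tested, and the list median was 0.19 on the log2(TPM + 1) scale, beside 3.22 for all genes above 0. The list includes 8 genes at 0 in both libraries, which were not tested, while the 55.5% and the 3.22 leave such genes out. The 4 genes called above 1 TPM were Neurod4, given above, Neurod1, Neurod2 and Rest, the repressor of neuronal genes. Neurod1 had 118 and 123 TPM, Neurod2 64.2 and 93.4 TPM, and Rest 6.64 and 7.03 TPM. The 8 genes listed at 0 in both libraries included Neurog1 and Atoh7. Of all 32813 symbols, 12845 were at 0 in both, so such a count is common. Pou3f2, a partner of Myt1l in reprogramming, had 0.21 and 0.22 TPM.

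Of 11 effectors of the Hippo pathway, a growth pathway whose effector Yap1 is repressed by Myt1l in neurons, 4 were above 1 TPM, against 55.5% of genes tested. Yap1 had 61.2 and 25.7 TPM, Tead1 37.2 and 27.0, Lats1 29.8 and 33.6 and Lats2 37.0 and 13.3 TPM. The lowest were Tead3 at 0.26 and 0.12 TPM and Tead4, listed at 0 in both and so not among the genes tested. Counted without a test, 9 of the 11 reached 1 TPM in replicate 2, as did 14882 of all 32813 symbols. In both libraries 6 reached it, as did 41.1% of all symbols. Of 11 core genes of the Polycomb repressive complex PRC1, which silences chromatin, 9 were above 1 TPM, against the same 55.5%, with Phc2 at 42.3 and 194 TPM, Pcgf2 at 82.2 and 68.6, Bmi1 at 33.2 and 39.7 and Phc1 at 25.4 and 44.0. The lowest were Cbx8 at 1.11 and 4.31 TPM and Cbx2 at 3.56 and 1.24, neither of them called.

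**Figure D4:**
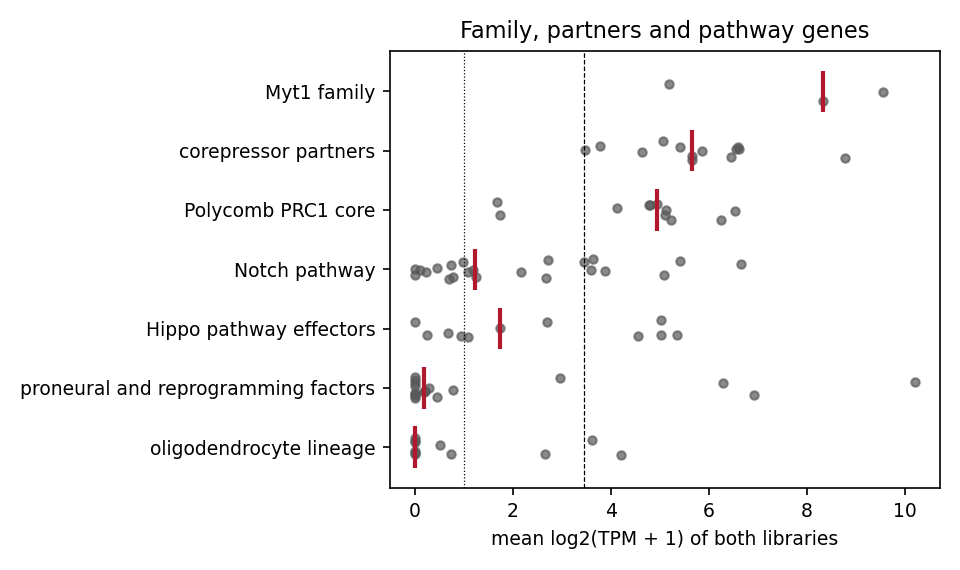
Mean log2(TPM + 1) over both libraries of each gene of 7 lists, 1 point per gene with random vertical spread, the median of each list as a red bar, 1 TPM as the dotted line and 10 TPM as the dashed line. The 13 corepressor partners all lay right of the dashed line, while the medians of the Notch, Hippo, proneural and oligodendrocyte lists lay left of it.

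Myt1 is also known from oligodendrocyte precursors, and Myt1 family genes occur in other retinal neurons, so markers of other cells are given beside the family. Of 11 oligodendrocyte genes, 6 were listed at 0 in both libraries, including the defining Olig1, Olig2, Sox10 and Cspg4. Of all 32813 symbols, 12845 were at 0 in both. The list summed to 37.8 TPM in replicate 1 and 36.9 TPM in replicate 2, below the value of Myt1 alone in each library. Its highest members, Mbp at 18.2 ± 7.28 and Cnp at 12.5 ± 8.17 TPM (SD, n = 2), are transcribed outside that lineage too. Of the labelled cell type, all 10 listed bipolar genes, not all of them shared by every bipolar type, reached 10 TPM in both libraries. So did 5 of 7 type 5 genes and 25.1% of all symbols. Htr3a was among the 5, but its promoter marks the sorted cells, so its level adds little on their identity. The other 2 type 5 genes were low, Chrm2 at 0.08 and 1.15 TPM and Slitrk5 at 0.55 and 2.15 TPM.

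Amacrine markers summed to 60.4 and 95.5 TPM, with Slc6a9 at 36.6 and 3.12 TPM and Pax6 at 22.3 and 46.5. Tfap2b had 0.33 and 20.4 TPM and Gad1 0.06 and 10.4 TPM, while Chat and Calb2 were at 0 in both. Ganglion cell markers summed to 32.7 and 75.3 TPM. Most of this was Thy1, at 28.3 and 63.9 TPM, followed by Rbpms at 3.25 and 8.91 TPM. Pou4f2, Pou4f3, Nefm and Sncg were at 0 in both. The amacrine and ganglion cell sums were both higher in replicate 2, where St18 and Myt1 were lower. The type 5 marker sum was also higher in replicate 2, at 680 TPM in replicate 1 and 759 TPM in replicate 2. The sum of the listed bipolar genes was lower there, at 7629 TPM in replicate 1 and 7099 TPM in replicate 2. The amacrine sum exceeded the value of Myt1l in both libraries and the ganglion cell sum did so in replicate 2. Rod markers summed to 1600 and 1649 TPM, with Gngt1 at 965 and 639 TPM, and cone markers to 189 and 43.7 TPM. Muller glia markers summed to 192 and 408 TPM, also higher in replicate 2. Their highest members were Glul at 75.8 and 124 TPM, Clu at 85.7 and 79.5, Vim at 0.20 and 119 and Dkk3 at 11.2 and 31.7. Vim thus differed most between the libraries. In the horizontal cell list Prox1, which bipolar cells express too, made up nearly all of the sum, and Onecut1 had 0.12 and 0.39 TPM. The part of these cells in the levels of the family was not tested.

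The members lie on 3 chromosomes. St18 spans 374 kb on chromosome 1, from 6487231 to 6860940, with 13 annotated transcripts, 10 of them protein-coding. Myt1 spans 64.5 kb on chromosome 2, from 181763332 to 181827797, with 12 transcripts, and Myt1l spans 395 kb on chromosome 12, from 29528384 to 29923213, with 11 transcripts. Each value sums over the transcripts of a gene, so the transcript or start site in use is not known.

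Promoter sequence from RefSeq on GRCm38.p6 was matched for Myt1, with 3 start sites, and for Myt1l, with 5. For St18 no promoter entry was found, so no St18 window was searched. The 250 bases before the annotated gene start of each are shown because both genes belong to a family that binds AAGTT. Capitals mark AAGTT, or AACTT for the other strand. The Myt1 window is chr2:181763082-181763331 and the Myt1l window chr12:29528134-29528383, both on the plus strand.

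Myt1: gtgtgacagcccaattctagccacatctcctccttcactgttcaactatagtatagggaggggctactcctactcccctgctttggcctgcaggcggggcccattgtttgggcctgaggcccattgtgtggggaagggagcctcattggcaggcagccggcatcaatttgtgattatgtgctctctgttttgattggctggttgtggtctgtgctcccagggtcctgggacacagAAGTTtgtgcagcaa

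Myt1l: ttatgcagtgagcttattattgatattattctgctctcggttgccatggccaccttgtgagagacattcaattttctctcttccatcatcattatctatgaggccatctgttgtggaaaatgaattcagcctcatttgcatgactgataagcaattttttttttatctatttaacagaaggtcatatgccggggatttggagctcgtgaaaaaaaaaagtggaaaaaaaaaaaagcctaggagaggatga

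The Myt1 window held 1 match, which starts 15 bases before the start site, and the other 2 Myt1 windows held 1 match each. The Myt1l window shown held 0 matches, and of the other 4 Myt1l windows 2 held a match. Of all 32851 windows of 250 bases, 35.3% held at least 1 match, so a match is common. The longer AAAGTTT, which contains AAGTT, or AAACTTT for the other strand, was in 1 of the 3 Myt1 windows, in 0 of the 5 Myt1l windows and in 4.20% of all windows. A match describes the letters of a window and is not a bound site.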

How the data were processed

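The authors deposited TPM per gene symbol, 1 column per library; the columns sum to 999999.75 and 999999.66. Per the labels' protocols, sorted cells were kept in RNAlater and total RNA was amplified with a NuGEN Ovation RNA-seq kit. TopHat2 2.0.10, RSEM 1.2.28 and mm10 are named in the submitters' processing notes. The column of replicate 1 misspells Htr3a and was matched by its number. TPM keeps no depth, so no count test, interval or floor was possible. A listed 0 can be a failed estimate.

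Members and gene lists were chosen with earlier results of these data known. Levels above 1 or 10 TPM were called on log2(TPM + 1) with limma 3.58.1 in R 4.3.3 (intercept only, variance trend, one-sided, Benjamini-Hochberg over the 19968 genes above 0). The trend alone set each gene's variance, so disagreement between libraries did not enter a call. In simulated data with 19968 genes, the test above 1 TPM called 29 of 50 genes set at 4 TPM and all 50 set at 16 TPM, so an uncalled gene is not shown to be under 1 TPM. The rule for named genes took every member of the family, corepressor and Notch lists, up to 4 highest and 2 lowest of other lists, the 10 highest transcription factors, and the 3 on either side and 5 nearest to each family member. Pkmyt1, Pou3f2, Htr3a, genes overlapping Myt1l, markers singled out as listed at 0 and the genes of the closing section were chosen after their values were seen. Of the symbols, 92.0% matched GENCODE M21.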

Additional observations from a re-analysis of the deposited data

How the results depend on the processing

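No paired analysis was possible because the series has a single group. Over 13 results and 72 alternatives, 65 values stayed within the spread of the libraries or within 1.5 times the count, 7 moved and 0 turned sign. Part of this was fixed beforehand. A single library always lies within the SD of 2, so levels and differences could not move when a library was left out. Counts, ranks and levels this high cannot turn sign. The difference between libraries, whose sign turned for Myt1l on rescaling, was not among the 13 results. With mitochondrial RNA removed and the rest rescaled, the level of Myt1 was 8.67 against 8.33 and that of Myt1l 5.53 against 5.19 (log2(TPM + 1)). One library alone allows no test, so the following are counts at or over the line. They ranged from 9294 to 9935 for all genes at 10 TPM (6475 called in both), and at 1 TPM from 12 to 16 for the Notch genes (7 called) and from 6 to 9 for the Hippo genes (4 called). St18 ranked between 2 and 3 among transcription factors. The precision of every value is limited by 2 libraries and by the unknown depth.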

Other observations

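The chromosome surroundings of St18 and Myt1 hold pairs of related genes, and their values were looked up after those of the family were known. Pcmtd1, the next annotated protein-coding gene after St18, 228 kb away, stood at 109 and 104 TPM, and Pcmtd2, 10.1 kb after Myt1, at 118 and 179 TPM. The other paired genes lie before the family member, 881 to 1990 kb from St18 and 42.3 to 91.7 kb from Myt1. Rb1cc1, a nearer gene 211 kb before St18, stood at 167 and 160 TPM. The opioid receptor genes of the same surroundings were not expressed at a comparable level: Oprk1, before St18, was listed at 0 in both libraries, and Oprl1, before Myt1, had 0.78 TPM in replicate 1 and a listed 0 in the other library. Sox17 and Sox18, on the St18 and Myt1 side respectively, were listed at 0 in both. The elongation factor genes Tcea1 and Tcea2 stood at 102 ± 14.6 and 26.6 ± 4.04 TPM, and the G protein regulators Rgs20 and Rgs19 at 11.3 ± 5.62 and 25.1 ± 10.7 TPM (SD, n = 2). Next to Myt1l, the peroxidasin gene Pxdn had 18.1 and 32.1 TPM.

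A zinc finger of the Myt1 type also occurs in the L3mbtl proteins, which bind methylated histones. L3mbtl1 stood at 11.4 and 27.97 TPM and L3mbtl3 at 3.34 and 5.01 TPM, while L3mbtl4 was listed at 0 in both libraries, so each was below Myt1l in both.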
